A study of Mus musculus with 5 samples.

Results

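Late erythroblasts are the last nucleated cells of the red cell lineage, and the cells described here are spleen barcodes rich in adult haemoglobin RNA. A barcode counted as a late erythroblast when Hba-a1, Hba-a2, Hbb-bs and Hbb-bt together held at least 10% of its unique molecular identifiers (UMIs, each standing for 1 captured RNA molecule) and Alas2 had at least 1 UMI. The mast cell genes Cpa3, Ms4a2 and Fcer1a together also had to stay under 5 UMIs per 10000. Of 32240 cells that passed the quality limits in 5 libraries, 710 met this rule. They were 32, 18, 42 and 48 cells in the libraries Decoy 2, Decoy 3, Decoy 5 and Decoy 6, against 570 cells in the PBS library. The cells were selected on their globin, Alas2 and mast cell gene UMIs, so those values are given as a description and carry no test.

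C57BL/6 mice had been injected intravenously with GFP-marked CMM cells, a mouse acute myeloid leukaemia that the study's title calls inv(16). Once about 1% of blood cells were GFP-positive, each mouse received 3 intravenous injections, 1 every other day. The Decoy libraries came from mice given CpG-STAT3dODN, a CpG oligonucleotide linked to decoy DNA that binds the factor STAT3, and the PBS library from mice given the carrier buffer alone. In both groups GFP+ c-Kit+ cells were sorted from the spleen and run as droplet libraries. The labels give neither the age nor the sex of the mice, do not say whether a library is 1 mouse or a pool, and do not expand the name CMM. With 4 libraries against 1, p-values below measure only the spread between these libraries, and the spread of the PBS group was not measured.

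In the erythroid lineage, progenitors that divide under Kit and erythropoietin signalling switch on Gata1 and Klf1. They then fill with haemoglobin, load iron, build the red cell membrane skeleton and shrink. The nucleus condenses, mitochondria are removed by mitophagy, ribosomes and other proteins are cleared through ubiquitin, and at last the nucleus is expelled. In mice the spleen is a main site of this process under stress. Kit falls early along this path, so late erythroblasts are not usually found in a c-Kit+ gate.

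The Decoy libraries held 56490098 to 234251245 UMIs over 2454 to 6867 barcodes, and the PBS library held 579333323 UMIs over 19337 barcodes. Pairs of libraries shared at most 0.695% of the barcodes of the smaller one. A doublet caller marked at most 0.412% of the kept cells in a Decoy library, where it had not worked, and 6.42% in PBS, 12 of its late erythroblasts among them. Counting the same barcodes with over 10% mitochondrial UMIs would add 0, 0, 5 and 1 cells in Decoy 2, 3, 5 and 6 and 18 in PBS.

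The marker genes that the rule did not use were found in late erythroblasts of each library. The name stands for the rule, and whether Decoy and PBS cells are of the same stage was not tested. Slc4a1, the band 3 anion exchanger of the red cell membrane, had a UMI in 81.3%, 88.9%, 92.9% and 87.5% of the cells of Decoy 2, 3, 5 and 6, against 97.7% of the 570 PBS cells (95% exact binomial interval 96.1 to 98.8%). Tmcc2, an endoplasmic reticulum membrane protein, had one in 28.1%, 50%, 42.9% and 60.4% of the Decoy cells, against 74.0% of the PBS cells (70.2 to 77.6%). B cells should lack both genes, and those of the Decoy libraries had Tmcc2 in 1.17% to 2.58% of cells. Among the 196 B cells of the PBS library, the shares of Slc4a1 and Tmcc2 were 3.06% and 3.57%, at a median of 3990 UMIs per cell against 6912 in the late erythroblasts. Car1/Klf1 cells, which are deeper and defined below, had Tmcc2 in 39.8%, 21.3%, 12.9% and 16.6% of Decoy 2, 3, 5 and 6 cells. The PBS share was 30.2%, and in Decoy 2 Tmcc2 was found in a smaller share of late erythroblasts than of Car1/Klf1 cells. Slc4a1 was found in 4.30%, 23.1%, 30.0% and 19.3% of the Decoy Car1/Klf1 cells and 4.47% of the PBS ones. Kit, the receptor of the sort, had a UMI in 4 of 32 late erythroblasts of Decoy 2 and in none of the 18, 42 and 48 of Decoy 3, 5 and 6, against 13 of 570 in PBS. The PBS share of 2.28% stood beside 2.04% in PBS B cells, so it did not exceed background RNA, and how these cells entered a c-Kit+ sort was not tested.

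Sex-linked transcripts split the cells within most libraries. Xist, the RNA that coats the inactive X chromosome of female cells, reached 2 UMIs per 10000 in 27 of 32, 8 of 18, 0 of 42 and 20 of 48 late erythroblasts of Decoy 2, 3, 5 and 6, against 41 of 570 in PBS. The other late erythroblasts are called Xist-low here. The Y-linked genes Ddx3y, Eif2s3y, Kdm5d and Uty gave a UMI without Xist in 2, 7, 29 and 20 Decoy cells and in 231 PBS cells. In PBS, 33 late erythroblasts carried both and 260 carried neither, at a median of 6387 UMIs for the last. Most of the PBS library was Xist-high, since only 1391 of its 17219 kept cells were Xist-low, and 529 of those 1391 were late erythroblasts. The labels do not say which sex was graft and which was host, so results are given with all late erythroblasts and with the Xist-low ones, a split chosen after the data had been seen.

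**Figure D1:**
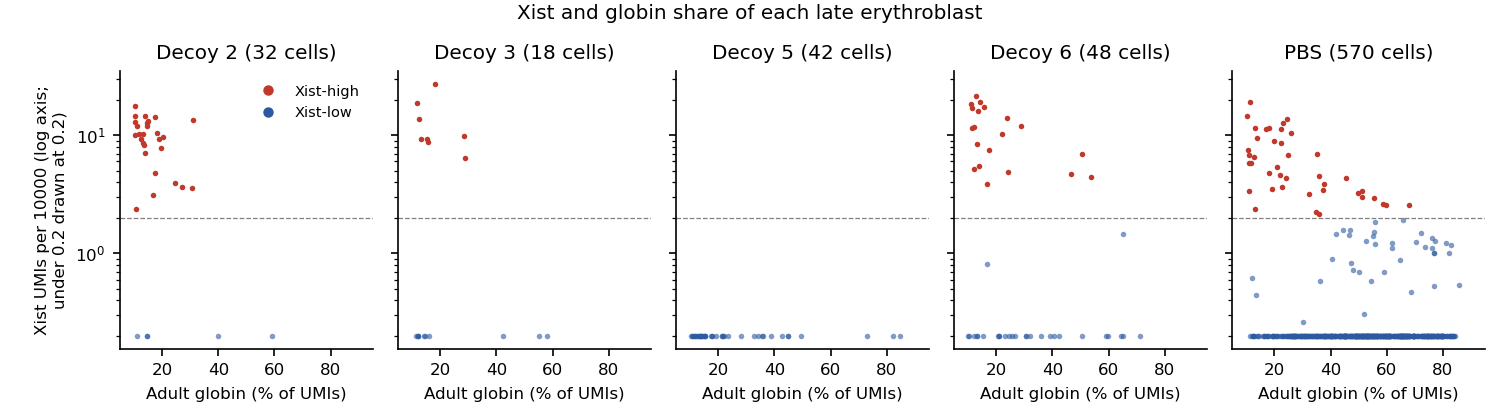
Each late erythroblast as a point, with the adult globin share of its UMIs in percent on the x axis and Xist UMIs per 10000 on a log y axis (values under 0.2 are drawn at 0.2), in 1 panel per library. Xist-high cells are red and Xist-low cells blue; Decoy cells crowd below 25% globin, and PBS cells are mostly Xist-low and reach 85.9%.

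Adult globins filled a different share of the cell in the 2 groups. The median late erythroblast had 14.7%, 14.9%, 17.6% and 22.6% of its UMIs from adult globin in Decoy 2, 3, 5 and 6, against 52.6% in PBS. At least 50% was reached by 1, 2, 3 and 9 cells of Decoy 2, 3, 5 and 6 and by 319 PBS cells, which is 56.0%. Hbb-bs, the main adult beta chain of this strain, held 7.60%, 9.31%, 10.1% and 11.2% of late erythroblast UMIs in the Decoy libraries, against 25.6% in PBS, and Hba-a1, an alpha chain, held 5.02%, 4.92%, 4.09% and 6.58%, against 8.31%. Hba-a1 and Hba-a2 are near-identical copies, as are Hbb-bs and Hbb-bt, so how reads were split within each pair is uncertain. Just outside the globin limit, at 8 to 10%, lay 10, 3, 6 and 7 cells of Decoy 2, 3, 5 and 6 and 21 of PBS, of which 19 were Xist-high. Just inside it, at 10 to 12%, lay 8, 3, 7 and 6 Decoy cells and 9 PBS cells.

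The Decoy late erythroblasts were also deeper. Median UMIs per cell were 21512 to 23423 over the Decoy libraries (mean 22562 ± 875, SD, n = 4) and 6912 in PBS, and median genes were 3431 to 3732 and 938.5. The gap outside globin was larger still, at a median of 17226 ± 1106 non-globin UMIs in Decoy cells (SD, n = 4) and 2688 in PBS cells. In the 5 Xist-low cells of Decoy 2 the median was 6155 UMIs. Each of these differences had an exact permutation p of 0.2, which is the smallest that 4 libraries against 1 can give.

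Late erythroblasts took a smaller share in each Decoy library than in PBS on the 3 scales given here. They made up 0.512%, 0.927%, 1.16% and 1.49% of kept cells in Decoy 2, 3, 5 and 6 (mean 1.02 ± 0.412%, SD, n = 4), against 3.31% in PBS, and no Decoy library reached the PBS share. They were also set beside Car1/Klf1 cells, which are defined below. Of both kinds together they were 15.8 ± 6.21% in Decoy libraries (SD, n = 4, range 11.1 to 24.9%), against 52.6% in PBS. Without Xist-high cells, late erythroblasts made up 0.657 ± 0.467% of kept Decoy cells (SD, n = 4) and 3.07% of kept PBS cells. The difference was known when the cells were chosen. These shares are therefore a description, and the exact permutation test run on them decides nothing. The sort gate and the number of leukaemic cells in each spleen set these shares too, and their part was not tested.

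To place the late erythroblasts on the path of red cell development, their RNA was set beside that of Car1/Klf1 cells of the same libraries. These cells had at least 5 Car1 UMIs per 10000, at least 2 Klf1 UMIs and adult globin under 10%. They are taken as erythroid progenitors by this rule alone. Car1 is a carbonic anhydrase of early erythroid cells. There were 256, 108, 287 and 145 such cells in Decoy 2, 3, 5 and 6 and 514 in PBS. Of the PBS ones, 490 carried Xist alone and 3 a Y-linked UMI alone, the reverse of the PBS late erythroblasts. A second comparison therefore set the 529 Xist-low PBS late erythroblasts beside the Car1/Klf1 cells of the Decoy libraries with a Y-linked UMI and no Xist (10, 90, 267 and 90 cells), called Y-linked Car1/Klf1 cells. It crosses treatment, so treatment and stage cannot be told apart in it. Within PBS, stage and the split of sex-linked transcripts cannot be told apart. Levels are UMIs per 1000000 UMIs that are not adult globin, and a gene counts as higher or lower past a 2-fold ratio with at least 20 UMIs in either set. The PBS and the Y-linked Car1/Klf1 cells were not alike. Summed membrane and skeleton genes stood at 560 in the PBS ones and 1402 in the Y-linked ones, and Gatm at 1.56 and 145. Whether the PBS ones are progenitors of the same lineage was not tested.

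Membrane and haem genes were higher in late erythroblasts than in Car1/Klf1 cells with few exceptions. Over all 10777 genes with enough UMIs in PBS, 15.4% were higher and 41.8% lower in late erythroblasts, and the median log2 ratio was −0.75. Per 1000000 of all UMIs, globin included, 986 were higher and 7529 lower, against 1657 and 4501 on the scale used here, and a minimum of 5% globin in place of 10% left 2472 lower. In the second comparison 16.6% of 11072 genes were higher and 43.4% lower. Of 21 membrane and skeleton genes 20 were higher and 0 lower in both comparisons. Their median log2 ratio was 5.16 within PBS and 2.96 in the second comparison. Of 12 haem synthesis genes measured, 12 were higher within PBS (median log2 3.46) and 10 in the second comparison (median log2 3.21). The rule chose cells on this same contrast, so these counts describe the cells and test nothing.

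Slc4a1 stood at a level of 2441 in late erythroblasts and 4.95 in Car1/Klf1 cells of PBS, a log2 ratio of 8.95 (95% Poisson interval 8.68 to 9.23, counting error only). In the second comparison it was 2893 against 86.4 ± 76.7 (SD, n = 4 libraries), a log2 ratio of 5.07. Epb42, the skeleton protein 4.2, stood at 476 against 1.29 within PBS, and Epb41, the skeleton protein 4.1, at 1827 against 51.2. Tmcc2 stood at 1474 against 10.7 within PBS and at 1761 against 3.35 ± 1.14 in the second comparison. Slc4a1 lies on chromosome 11 (102348824 to 102366203, minus strand) and Tmcc2 on chromosome 1 (132356315 to 132391281, minus strand) of GRCm38.

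Alas2, the first and rate-limiting enzyme of erythroid haem synthesis, lies on chromosome X (150547375 to 150570638, plus strand). It was part of the rule and stood at 2830 in PBS late erythroblasts and 5.97 in PBS Car1/Klf1 cells. Later enzymes of the same pathway, which the rule did not name, followed: Urod at 945 against 95.1 (log2 3.31) and Fech, which inserts the iron, at 1069 against 51.5 (log2 4.38). The promoter of Alas2 shows the letters that erythroid factors are known to bind in other genes. It is given 250 bases before to 50 after the start, from RefSeq on GRCm38.p6 (chrX:150547167-150547466, plus strand), with capitals for matches to the GATA motif (AGATAA or TGATAA) or the CACCC box (CCNCNCCC) on either strand, where matches may overlap.
Alas2: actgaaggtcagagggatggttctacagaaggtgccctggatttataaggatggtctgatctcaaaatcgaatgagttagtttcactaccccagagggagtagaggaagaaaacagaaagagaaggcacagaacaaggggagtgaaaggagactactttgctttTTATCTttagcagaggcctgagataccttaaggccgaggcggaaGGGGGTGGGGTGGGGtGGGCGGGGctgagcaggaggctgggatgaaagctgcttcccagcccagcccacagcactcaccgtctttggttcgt
The GATA letters stood in 3 of 10 haem synthesis genes and 8 of 15 membrane genes with a promoter on file, beside 21.0% of 27025 genes, and the CACCC letters in 9 of 10 and 10 of 15, beside 51.9%. A match is a description of the letters and not a measured site.

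Iron genes followed the haem enzymes in part, with 8 of 14 higher and 2 lower within PBS and 7 higher and 4 lower in the second comparison. All genes together gave 15.4% higher and 41.8% lower within PBS, and 16.6% and 43.4% in the second comparison. Tfrc, the transferrin receptor, stood at 2269 in late erythroblasts and 128 in Car1/Klf1 cells, and Slc25a37, the mitochondrial iron importer mitoferrin 1, at 1266 and 27.1. Ftl1, ferritin light chain, stood at 10014 and 909. Steap3, Aco1, Tfr2 and Pcbp1 were the 4 lower in the second comparison.

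Clearance genes were the next group. They stand beside shares over all genes of 15.4% higher and 41.8% lower within PBS, and 16.6% and 43.4% in the second comparison. Of 14 autophagy and mitophagy genes 10 were higher and 1 lower within PBS (10 and 2 in the second comparison), of 13 ubiquitin genes 10 were higher and 0 lower in both, and of 11 integrated stress response genes 8 were higher and 0 lower in both. Bnip3l, the mitophagy receptor of maturing red cells, stood at 1234 in late erythroblasts and 192 in Car1/Klf1 cells of PBS. Ube2o, the enzyme that marks ribosomal and other proteins for removal in reticulocytes, stood at 945 and 20.8, and Ube2h, another ubiquitin-conjugating enzyme, at 872 and 9.40. Xpo7, a nuclear transport receptor that acts in nuclear maturation of erythroblasts, stood at 1212 and 19.6. Eif2ak1, the haem-regulated kinase that couples globin translation to haem, stood at 574 and 41.1, and its downstream factor Atf4 at 640 and 157. Trib3, a pseudokinase switched on by Atf4, stood at 367 and 7.93.

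For the next lists the shares over all genes are again 15.4% higher and 41.8% lower within PBS, and 16.6% and 43.4% in the second comparison. Redox genes were higher in 8 of 14 within PBS with 0 lower, and in 7 in the second comparison with 2 lower (Sod2 and G6pdx). Among the higher ones was Gpx1, a glutathione peroxidase, at 8228 in late erythroblasts and 1829 in Car1/Klf1 cells. Glycolysis genes ran the other way, with 2 of 14 higher and 10 lower. One of the 2 was Bpgm, which makes the 2,3-bisphosphoglycerate that tunes haemoglobin, at 1590 and 41.6. Bcl2l1, the survival gene of late erythroid cells, stood at 427 and 17.4, and Pim1, a kinase gene that STAT factors switch on, at 1373 and 104. Stat3 itself did not pass 2-fold, at 39.7 and 51.6.

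Of 15 erythroid transcription factor genes 9 were higher and 2 lower within PBS, beside 15.4% higher over all genes, and 6 were higher and 2 lower in the second comparison. Klf1, which chose the progenitors, stood at 288 in late erythroblasts and 104 in Car1/Klf1 cells of PBS, but at 313 against 241 ± 24.3 (SD, n = 4) in the second comparison, under 2-fold. Gata1 stayed within 2-fold in both, at 170 and 157 within PBS. Nfe2, a globin activator, stood at 489 and 11.5, and Foxo3, which drives late maturation, at 390 and 27.2. Among progenitor genes 3 of 9 were higher and 5 lower within PBS, beside 41.8% lower over all genes. In the second comparison 0 were higher and 7 lower, beside 43.4% lower over all genes. Car1 is among the 7, and since it chose the Car1/Klf1 cells, its lower level was set in advance. Myb, which keeps progenitors dividing, was at 21.9 in late erythroblasts and 147 in Car1/Klf1 cells, and Kit at 6.07 and 27.9. Of the 83 cytosolic ribosomal protein genes, 7 were lower and 0 higher.

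**Figure D2:**
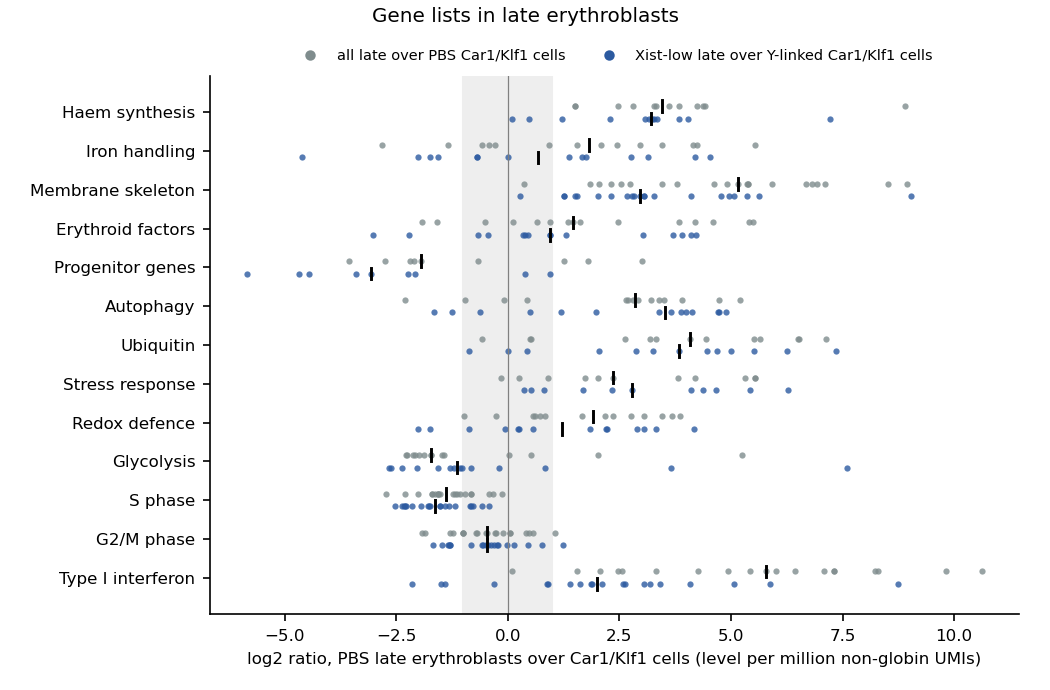
Each point is 1 gene's log2 ratio of its level in PBS late erythroblasts over Car1/Klf1 cells, by gene list on the y axis; grey points use all late erythroblasts over PBS Car1/Klf1 cells and blue points use Xist-low ones over Y-linked Car1/Klf1 cells. Black bars are list medians and the shaded band is within 2-fold; membrane and skeleton (5.16) and interferon genes (5.78) lie far above 0 by their grey medians, and S phase genes (−1.37) lie below it.

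Type I interferon genes were higher in the PBS late erythroblasts than in PBS Car1/Klf1 cells almost throughout, with 18 of 19 past 2-fold and a median log2 ratio of 5.78. In the second comparison 14 of 20 were higher, 3 were lower and the list's summed level was 17336 against 2617. Over all genes 15.4% were higher within PBS and 16.6% in the second comparison. Rsad2, the antiviral enzyme viperin, stood at 3575 in PBS late erythroblasts and 2.27 in PBS Car1/Klf1 cells, a log2 ratio of 10.62 (95% Poisson interval 10.22 to 11.05), and at 4227 against 9.81 ± 3.64 (SD, n = 4) in the second comparison. It was found in 513 of the 570 cells, and the 5 richest cells gave 10.9% of its UMIs. Isg15, a ubiquitin-like modifier, stood at 7036 and 23.5 within PBS and at 8425 against 252 ± 98.2 (SD, n = 4) in the second comparison. Isg20, an RNA exonuclease, stood at 1253 and 19.3.

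Ifitm3, Bst2 and Zbp1 were the 3 interferon genes that were lower in the second comparison. Ifitm3, a membrane protein that blocks virus entry, stood at 203 in late erythroblasts and 69.4 in Car1/Klf1 cells within PBS (log2 1.55), but at 245 against 1084 ± 134 (SD, n = 4) in the second comparison (log2 −2.15). Rsad2 and Isg15 thus lay above both sets of Car1/Klf1 cells, and Ifitm3 lay between them.

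The promoters of 3 of these genes are printed to show that Ifitm3 has the same kind of letters as the others. They run from 250 bases before to 50 after the start, from RefSeq on GRCm38.p6, all on the minus strand: Isg15 at chr4:156200769-156201068, Rsad2 at chr12:26456403-26456702 and Ifitm3 at chr7:141010695-141010994. Capitals mark matches to the interferon response letters, GAAA, any 2 bases and GAAA again, on either strand, which overlap each other in Isg15.
Isg15: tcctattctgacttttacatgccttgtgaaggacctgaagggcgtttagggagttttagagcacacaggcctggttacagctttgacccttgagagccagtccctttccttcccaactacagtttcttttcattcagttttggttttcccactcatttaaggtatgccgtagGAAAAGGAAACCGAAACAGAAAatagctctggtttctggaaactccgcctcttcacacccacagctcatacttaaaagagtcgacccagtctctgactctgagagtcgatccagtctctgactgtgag
Rsad2: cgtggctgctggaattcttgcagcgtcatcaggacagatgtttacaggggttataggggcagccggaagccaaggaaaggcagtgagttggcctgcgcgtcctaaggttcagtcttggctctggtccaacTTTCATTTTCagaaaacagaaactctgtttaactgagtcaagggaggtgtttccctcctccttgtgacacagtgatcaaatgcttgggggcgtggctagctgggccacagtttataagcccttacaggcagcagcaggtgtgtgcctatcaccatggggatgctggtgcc
Ifitm3: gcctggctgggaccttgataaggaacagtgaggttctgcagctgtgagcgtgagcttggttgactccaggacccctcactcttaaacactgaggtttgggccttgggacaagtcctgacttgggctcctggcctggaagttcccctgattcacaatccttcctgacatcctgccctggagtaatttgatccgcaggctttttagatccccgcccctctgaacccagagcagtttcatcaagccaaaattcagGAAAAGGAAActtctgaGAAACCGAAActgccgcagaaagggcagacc
Isg15 held 3 matches, Rsad2 1 and Ifitm3 2. Of the 14 interferon genes with a promoter on file, 9 held a match (64.3%), beside 3.99% of all 27025 genes, 0 of 15 membrane genes and 1 of 10 haem genes.

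Of 20 S phase genes 14 were lower and 0 higher in late erythroblasts within PBS (median log2 −1.37), and of 20 G2/M genes 6 were lower and 1 higher (median log2 −0.47). Over all genes 41.8% were lower and the median was −0.75. To set depth aside, each cell was thinned to 1000 non-globin UMIs. An S phase UMI was then found in 53.1%, 55.6%, 57.5% and 60.4% of the late erythroblasts of Decoy 2, 3, 5 and 6, and a G2/M UMI in 31.3%, 38.9%, 60% and 45.8%. In PBS an S phase UMI was found in 36.3% of 564 PBS late erythroblasts (95% exact interval 32.4 to 40.5%) and 84.8% of 514 PBS Car1/Klf1 cells, and a G2/M UMI in 63.3% (59.2 to 67.3%) and 82.5%. Unthinned, the PBS late erythroblast shares were 60.7% and 85.3%. PBS B cells thinned in the same way gave 33.2% and 19.9%. In PBS the S phase share of late erythroblasts thus lay near that of B cells, and the G2/M share above it. How many B cells divide was not tested, so they are not a measure of cells at rest. Decoy B cells gave 35.1%, 43.7%, 40.3% and 33.2% for S phase in Decoy 2, 3, 5 and 6. For G2/M they gave 23.4%, 34.6%, 28.7% and 18.9%. Each was under the share of that library's late erythroblasts. The thinning is random, and another draw on the same Decoy 5 late erythroblasts gave 60% for S phase and 70% for G2/M. Small gaps, as for G2/M in Decoy 3, are therefore not read as differences.

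The 10 genes with the largest ratio of PBS late erythroblasts over PBS Car1/Klf1 cells included Calcrl, Gdf15, Rsad2, Slfn14, Ypel4, Cd3g, Ccl3, Ifit1 and Ccl4. Gdf15, a secreted stress factor that erythroblasts release, stood at 467 in late erythroblasts and 0.223 in Car1/Klf1 cells, and Slfn14, an endoribonuclease of the Schlafen family, at 781 and 0.579. They had a UMI in 240 and 377 of the 570 cells. Cd3g, Ccl3 and Ccl4 rested on 4, 2 and 3 cells, since single cells held 196 of the 219, 522 of the 523 and 180 of the 185 UMIs. The 10 genes with the lowest ratios (Pwwp3b, Fam72a, Plxdc2, Deptor, Adgrg7, Dhx37, Plekha7, Gm30648, Il17rc and Zfp568) each had 1 or 2 UMIs in late erythroblasts. Of these, Fam72a, Adgrg7, Dhx37 and Zfp568 were also lower in the second comparison. Pwwp3b, Plxdc2, Plekha7, Gm30648 and Il17rc stood at 7.44 to 10.9 in PBS Car1/Klf1 cells, but at only 0.0804 to 0.203 in Y-linked ones. Deptor, at 2.34 in the Y-linked ones, did not pass 2-fold there.

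Within the PBS library the late erythroblasts differed widely among themselves. The Xist-low ones were put into 4 ranges of adult globin share, 10 to 25% (38 cells), 25 to 50% (178), 50 to 75% (245) and 75% and over (68), which cut a continuous value and are not types. Alas2 stood at 936, 2218, 4427 and 8394 over these ranges, higher in each richer range. Ubb, a polyubiquitin gene, stood at 2470, 5832, 15099 and 26311, and Map1lc3b, the autophagosome protein LC3B, at 501, 1180, 2784 and 4791. Ubiquitin genes in sum stood at 5742, 12508, 26210 and 40898.

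Other genes peaked in the middle. Tfrc stood at 1947, 3722, 2332 and 815 and Tmcc2 at 612, 1333, 2710 and 929. Slc4a1 stood at 1633, 3089, 3262 and 2453. Malat1, a long non-coding RNA kept in the nucleus, stood at 25676, 65590.5, 54868 and 3276, its lowest level in the globin-richest cells. Mki67, a gene of dividing cells, stood at 717, 1318, 351 and 152, and the summed S phase list at 2277, 1438, 371 and 282. Among interferon genes Isg15 stood at 1767, 5295, 12448 and 16347 and Rsad2 at 1875, 3185, 5997 and 4517, whereas Ifitm3 was highest in the poorest range, at 563, 134, 223 and 251. The summed interferon list was 3.02 log2 units higher at 75% and over than at 10 to 25% with all late erythroblasts and 2.16 without the Xist-high ones. Mitochondrial UMIs had medians of 5.36%, 3.05%, 1.31% and 0.635% of all UMIs over the 4 ranges, a share that globin itself lowers. The ranges share 1 library, so cells are not replicates here.

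**Figure D3:**
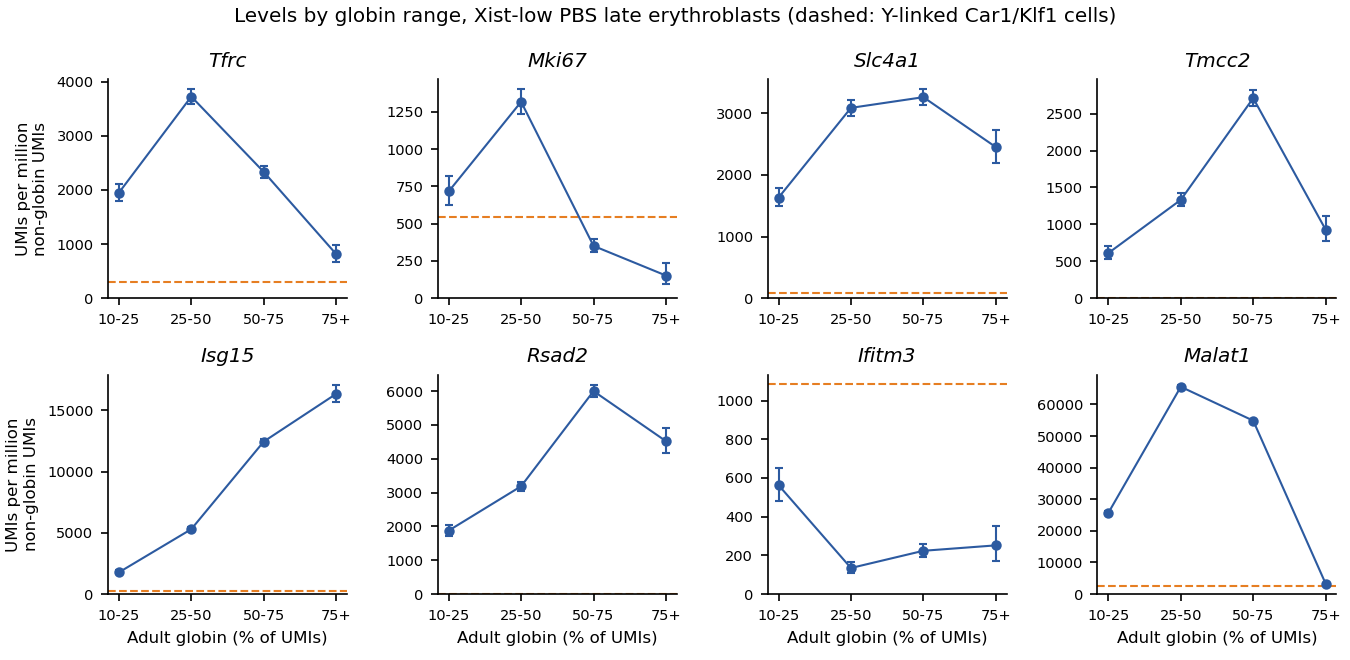
Levels per 1000000 non-globin UMIs (y axis, linear scale) of 8 genes in the Xist-low PBS late erythroblasts. The x axis holds 4 ranges of adult globin share in percent, and bars are 95% Poisson intervals that cover counting error only. Dashed lines mark the mean of the Y-linked Car1/Klf1 cells; Isg15 climbs to 16347 in the top range, Malat1 drops to 3276 there and Ifitm3 stays below its dashed line of 1084.

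Decoy and PBS late erythroblasts were then compared gene by gene on UMIs summed per library, without the adult globins. With all late erythroblasts, edgeR called 600 of 8353 genes lower (7.18%) and 14 higher (0.168%) in the Decoy libraries at an adjusted p under 0.05. Of 21 membrane genes 17 fell, of 12 haem genes 9, of 13 ubiquitin genes 9, of 14 autophagy genes 7 and of 19 interferon genes 5, and none of these lists had a member that rose. Alas2, a gene of the rule, is among the 9. Among the 14 that rose were C1qc, Cd5l, Vcam1 and Mertk, genes of macrophages. The calls rest on the libraries used: 0 genes passed without Decoy 3 (1413 at an unadjusted p under 0.05), 96 without Decoy 6, 684 without Decoy 5 and 1105 without Decoy 2.

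The values behind these calls are counts per 1000000 non-globin UMIs as scaled by edgeR (CPM). Alas2 had 590.0, 664, 609 and 764 CPM in Decoy 2, 3, 5 and 6, against 3931 CPM in PBS, which is a description since the rule used this gene. Tmcc2 had 26.4, 162, 99.8 and 238 CPM, against 2047 CPM in PBS, a log2 change of −3.96 ± 0.79 (SE). Each Decoy library lay below PBS for both, and Decoy 2 was the lowest. Tmcc2 passed with all Decoy libraries, but not under each of the 10 other settings tried. Of these, the minimum of 5 cells per library left the same libraries and calls as the main setting. That of 20% globin or more kept only Decoy 5 and 6. Trib3 fell too, with 31.4, 24.5, 12.5 and 28.5 CPM in the Decoy libraries and 509.9 CPM in PBS (log2 −4.40 ± 0.42).

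Rsad2 and Isg15, interferon genes, fell as well. Rsad2 had 31.4, 477, 301 and 367 CPM in Decoy 2, 3, 5 and 6, against 4966 CPM in PBS (log2 −4.08 ± 0.93, edgeR adjusted p = 0.0495, range 2.88e-14 to 0.138 over the same settings). Isg15 had 172, 973, 1118 and 733 CPM, against 9772 CPM in PBS (log2 −3.71 ± 0.72, edgeR adjusted p = 0.0310, range 6.64e-21 to 0.112). Neither passed without Decoy 3 or without Decoy 6, nor did Tmcc2, and Trib3 did not pass without Decoy 3. Ifitm3 did not pass, with 116, 885, 1268 and 969 CPM in the Decoy libraries and 282 CPM in PBS (log2 1.52 ± 1.13). Decoy 2, whose late erythroblasts were mostly Xist-high, was lowest of the Decoy libraries in all 3.

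The cells of the 2 groups were not alike in other respects, and these values moved with the result. At least 3 UMIs of 8 macrophage genes (C1qa, C1qb, C1qc, Vcam1, Cd5l, Spic, Hmox1 and Slc40a1) were found in 6.25%, 33.3%, 59.5% and 41.7% of late erythroblasts in Decoy 2, 3, 5 and 6, against 4.21% in PBS. Summed, these 8 genes stood at 862 to 5735 in the Decoy libraries and 134 in PBS, and none of them was at 0. At least 3 UMIs of 6 B cell genes were found in 6.25%, 72.2%, 81.0% and 37.5% of Decoy cells and 1.93% of PBS cells, with Cd79a and Ms4a1 at 0 in Decoy 2 and Decoy 3. Globin content also differed, as given above, and so did the share of Xist-high cells.

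The comparison was therefore repeated, by alternatives chosen after the data had been seen, in narrower sets of cells. Without Xist-high cells, which leaves Decoy 3, 5 and 6, edgeR called 1570 of 7545 genes lower (20.8%) and 690 higher (9.15%), but 0 without Decoy 6 as well (2054 at an unadjusted p under 0.05). Without Xist-high cells and also without cells with 3 or more macrophage UMIs, 6, 17 and 12 cells of Decoy 3, 5 and 6 and 509 of PBS remained, and Decoy 2 was left out since it kept 3. In these edgeR called 1024 of 4336 genes lower (23.6%) and 408 higher (9.41%). Keeping only 10 to 25% globin as well left 5, 12 and 5 cells of Decoy 3, 5 and 6 and 36 of PBS. Adult globin still differed in these, with medians of 12.1%, 13.7% and 13.3% of UMIs in the Decoy cells and 18.5% in the PBS cells. There edgeR called 665 of 3912 genes lower (17.0%) and 226 higher (5.78%). Leaving out each of the 3 Decoy libraries in turn gave 433 to 751 lower and 112 to 333 higher in this last set.

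In the set of 10 to 25% globin, of 12 haem genes 2 rose and 3 fell, Alas2 among the 3, and of 21 membrane genes 6 fell and 0 rose. These stand beside the 17.0% of all genes that fell and 5.78% that rose in this set. Alas2 had 558, 417 and 441 CPM in Decoy 3, 5 and 6, against 1118 CPM in PBS, given as a description. Slc4a1 had 1090.3, 773 and 677 CPM, against 1941 CPM in PBS, and fell (log2 −1.20 ± 0.26). Each Decoy library lay below PBS for both.

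The p-values of single genes in this set are left out. With few cells in each of 3 Decoy libraries and a single PBS library, they say little about spread between libraries. Tmcc2 had 25.8, 35.6 and 16.3 CPM in Decoy 3, 5 and 6, against 729 CPM in PBS (log2 −4.64 ± 0.39). It passed here, but not in each of the 12 settings chosen later. Xpo7 had no UMI in these cells of any of the 3 Decoy libraries, against 679.8 CPM in PBS. Ube2h had 0, 19.4 and 8.16 CPM, against 512 CPM in PBS. Of 12 ubiquitin genes 7 fell, of 8 autophagy genes 6 and of 9 integrated stress response genes 5, and 0 rose. Over all genes of this set 17.0% fell and 5.78% rose.

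Of 15 interferon genes in this set 8 fell and 0 rose, beside 17.0% of all genes that fell and 5.78% that rose. Rsad2 had 42.9, 90.6 and 114 CPM in Decoy 3, 5 and 6, against 2338 CPM in PBS (log2 −4.78 ± 0.31). It passed here, but not in each of the settings chosen later. Isg15 had 1588, 1540.3 and 914 CPM, against 2199 CPM in PBS (log2 −0.70 ± 0.25), and passed here but not without Decoy 6. Isg20 had 498, 599 and 588 CPM, against 430.0 CPM in PBS, and did not pass (log2 0.39 ± 0.32). Ifitm3 had 1065, 1119.6 and 1094 CPM, against 668 CPM in PBS (log2 0.71 ± 0.30). It did not pass in this set, though it did in some of the settings chosen later. Each Decoy library lay below PBS for Rsad2 and Isg15 and above PBS for Isg20 and Ifitm3.

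Of 4 progenitor genes tested in this set Car1 alone rose and 0 fell, and of 15 erythroid transcription factor genes 2 rose (Klf1 and Lmo2) and 6 fell. Car1 had 695, 1162 and 1199.8 CPM in Decoy 3, 5 and 6, against 159.7 CPM in PBS (log2 2.68 ± 0.37), and Klf1 had 369, 414 and 416 CPM, against 192 CPM in PBS (log2 1.06 ± 0.36), which passed with all 3 Decoy libraries but not without Decoy 5 or Decoy 6. With all late erythroblasts Klf1 did not pass, on the other side of 0 (log2 −0.76). Of 19 S phase genes 10 rose and 0 fell, and of 20 G2/M genes 8 rose and 0 fell. The counts of this paragraph stand beside 5.78% of all genes that rose and 17.0% that fell. Stat3, the target of the decoy DNA, had 8.58, 25.9 and 32.6 CPM, against 73.7 CPM in PBS (log2 −1.63 ± 0.77). It did not pass in this set or in the other settings chosen later. Cish, a target of STAT signalling, had 42.9, 42.1 and 89.8 CPM, against 159.7 CPM in PBS, and fell (log2 −1.55 ± 0.45). With all late erythroblasts Cish did not pass. Of 7 erythropoietin and STAT signalling genes tested in this set 3 fell (Bcl2l1, Pim1 and Cish) and 0 rose. Whether the decoy DNA had a part in this was not tested.

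RNA of other cells remained in the set of 10 to 25% globin. Of 5 B cell genes tested 5 fell in the Decoy cells, with at least 3 such UMIs in 3 of 5, 11 of 12 and 0 of 5 cells of Decoy 3, 5 and 6 and 6 of 36 PBS cells. T cell, NK cell, neutrophil and monocyte genes fell as well (3 of 4, 1 of 1, 2 of 2 and 2 of 2 tested). Over all genes of this set 17.0% fell. Among all 570 PBS late erythroblasts, single cells held 196 of the 219 UMIs of Cd3g, 361 of 412 of Nkg7, 594 of 656 of S100a8 and 212 of 237 of Lyz2, and the 5 richest cells held 72.0% of Igkc, 63.9% of Cd79a and 71.2% of Ms4a1. At least 3 UMIs of mast cell genes were found in 0 of 5, 1 of 12 and 1 of 5 Decoy cells and 10 of 36 PBS cells. Cells were also deeper in the Decoy libraries, with medians of 17022, 29392 and 23208 UMIs in Decoy 3, 5 and 6 and 5629 in PBS. The part of other cells' RNA and of depth in these changes was not tested.

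**Figure D4:**
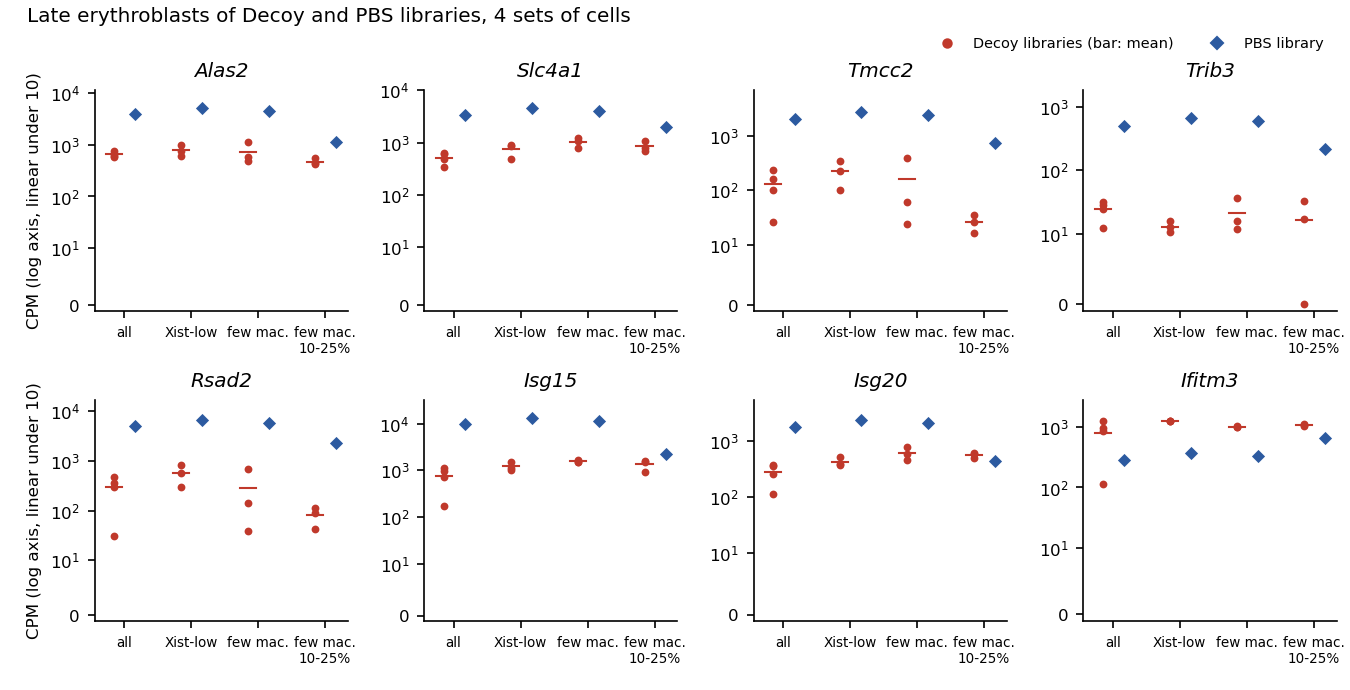
CPM (y axis, log scale, linear under 10) of 8 genes in late erythroblasts, with Decoy libraries as red dots with a bar at their mean and the PBS library as a blue diamond, for all cells and for 3 narrower sets (x axis). Tmcc2, Trib3 and Rsad2 keep a wide gap in the last set (10 to 25% globin), Isg15 narrows to 914 to 1588 CPM in Decoy libraries and 2199 CPM in PBS, and Ifitm3 is higher in Decoy 3, 5 and 6 than in PBS.

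Embryonic globins, which mouse cells normally use only before birth, were seen in some late erythroblasts. Over 0.05% of UMIs came from them in 5 of 32, 2 of 18, 0 of 42 and 6 of 48 late erythroblasts of Decoy 2, 3, 5 and 6, against 4 of 570 in PBS. Hbb-y, an embryonic beta chain, held 0.0610%, 0.0531%, 0% and 0.501% of Decoy late erythroblast UMIs and 0.00392% in PBS, where 1 cell held 139 of its 193 UMIs. In Decoy 6 all 6 such cells were Xist-high, as were 4 of 5 in Decoy 2, 2 of 2 in Decoy 3 and 3 of 4 in PBS. The mean share over Decoy libraries was 9.81 ± 6.81% (SD, n = 4), against 0.702% in PBS, and the exact permutation p was 0.6, since Decoy 5 had none.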

How the data were processed

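The deposited files hold raw UMI counts per gene and barcode for 5 droplet libraries (10x Single Cell 3′ v3.1), which the authors made with Cell Ranger 3.1 on mm10, per the submitters' processing notes, while the file headers name Cell Ranger 5.0.0. The notes also name Seurat 4 and DESeq2. The counts were not normalized, and nothing in the labels says that doublets were removed before deposit, so doublets were kept and counted with scrublet.

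The quality limits were 500 genes and 1000 UMIs as minima per barcode, with mitochondrial UMIs no higher than 10%. UMIs were summed per library and cell set, since cells are not replicates. Levels are per 1000000 UMIs outside Hba-a1, Hba-a2, Hbb-bs and Hbb-bt. Their intervals are exact Poisson or binomial, at 95%, and cover counting error only. Decoy and PBS libraries with at least 10 late erythroblasts (5 in the sets without macrophage UMIs) were compared with edgeR 4.0.16 in R 4.3.3 (quasi-likelihood test, TMM scaling, filterByExpr, Benjamini-Hochberg over all genes tested, two-sided, threshold 0.05), with the adult globins left out. The single PBS library is assumed to vary like the Decoy ones. Scripts for this were tested on simulated data. DESeq2 1.42.0 was an alternative. Shares were compared by a two-sided exact permutation test. Gene positions are those of GENCODE vM21 on GRCm38, and promoters those of RefSeq on GRCm38.p6.

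The members and gene lists were chosen with earlier results of these data known. Named genes are the markers, list members past 2-fold or among the 3 highest of a list, and the 10 largest ratios in each direction. Gata1, Stat3, Mki67, Malat1 and Mertk were named outside this rule after their values were seen, and some genes that meet it are not reported here. Besides 28 alternative settings listed at the start, 7 kinds were chosen once values were known, which gave 12 settings of the Decoy against PBS comparison.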

Additional observations from a re-analysis of the deposited data

Results flagged for a closer look

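Dixon's test was run on 33 measures of late erythroblasts over the 4 Decoy libraries, and 3 had a library far from the other ones; chance flags about 1 in 20 groups. Malat1 stood at 22054 per 1000000 non-globin UMIs in Decoy 3, against 10473 to 12264 in the other Decoy libraries. C1qa, a macrophage gene, stood at 1130.04 in Decoy 5, against 140 to 299. Embryonic globin passed 0.05% of UMIs in 20% of the Xist-low late erythroblasts of Decoy 2, which is 1 of 5 cells, and in none of the 10, 42 and 28 of Decoy 3, 5 and 6.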

How the results depend on the processing

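The share of late erythroblasts was lower in Decoy libraries than in PBS under all 11 alternatives tried, by 2.07 to 3.49 percentage points. Against PBS Car1/Klf1 cells, a minimum of 5% globin gave 2472 genes lower and per 1000000 of all UMIs 986 were higher and 7529 lower. Ifitm3 had a log2 ratio of −2.05 against the mean of the Decoy Car1/Klf1 cells (−2.37, −1.96, −1.82 and −2.002 without Decoy 2, 3, 5 and 6) and −2.15 against Y-linked ones. The cause of this turn was not tested.

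Genes called higher in Decoy late erythroblasts numbered 114 by DESeq2, 30 with no filter, 578 (926 lower) at 20% globin or more, and 0 to 246 (0 to 859 lower) without 1 Decoy library, where 96 lower genes passed without Decoy 6. Without Xist-high cells there were 690 higher (1570 lower), 342 higher by DESeq2, 541 (1210 lower) at 10 to 50% globin, 692 (1448 lower) with globins kept in the library size and 1056, 547 and 0 (1890, 1350 and 0 lower) without Decoy 3, 5 and 6. Without cells rich in macrophage UMIs as well there were 408 (1024 lower), and at 10 to 25% globin 226, or 333, 112 and 163 without Decoy 3, 5 and 6. In that last set the log2 change turned positive for Isg20 (0.39, and 0.50, 0.25 and 0.43 without Decoy 3, 5 and 6), Mki67 (0.80, and 0.72, 0.81 and 0.89) and Klf1 (1.06, and 1.14, 0.94 and 1.10). Mki67 was also 0.16 with all globin shares, and Stat3 turned to 0.58 at 20% globin or more, 0.28 at 10 to 50% and 0.046 without Xist-high cells and Decoy 3. Fewer cells and libraries entered these sets.

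Thinned to 2000 and 500 UMIs, PBS late erythroblasts had an S phase UMI in 50.9% and 24.4% of cells and a G2/M UMI in 76.1% and 47.0%. The interferon list's log2 ratio between globin ranges was 2.16 without Xist-high cells. No paired analysis was possible because the groups share no replicate numbers. The PBS group is 1 library, and 18 to 48 late erythroblasts per Decoy library limit what can be called.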

Other observations

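When Xist-low PBS late erythroblasts were set beside Y-linked Car1/Klf1 cells, Slfn14 and Gdf15 stood among the 10 largest ratios, as they did within PBS. Tcp11l2, not among the 10 within PBS, stood at a level of 721 against 1.31 ± 0.247 (SD, n = 4). At the other end Gatm, the first enzyme of creatine synthesis, stood at 2.02 against 145 ± 20.1 (SD, n = 4), while within PBS it did not pass 2-fold.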
